A study of Mus musculus with 4 samples.

Results

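The RNA described here came from near-empty droplets of 4 single-cell libraries of mouse brain myeloid cells. In droplet sequencing each droplet carries 1 barcode, and each captured RNA molecule is counted once through a unique molecular identifier (UMI). Near-empty barcodes were chosen by their UMI count alone, as all barcodes with 1 to 100 UMIs, and their UMIs were summed into 1 profile per library. This gave 3580660 near-empty barcodes of 3652833 barcodes with a UMI. Whether each of these barcodes stood for a droplet of its own was not tested. The profile was compared with the sum over the cells of the same library, defined as barcodes of 1000 or more UMIs and 500 or more genes in which mitochondrially encoded genes made up no more than 10% of UMIs. There were 13940 cells.

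Each library held CD11b+/CD45+ myeloid cells that had been sorted by flow cytometry from the left hemisphere of the brain after a Percoll density gradient. Every mouse was labelled as a female of 4 months and had the APP/PS1 transgenes, which give mice amyloid plaques like those of Alzheimer's disease. The cKO group (genotype APP/PS1:miR-155 cKO, 2 libraries) was described as having the microRNA miR-155 deleted in microglia, and the Control group (genotype APP/PS1, 2 libraries) carried the amyloid transgenes only. The labels give neither the Cre driver nor the deleted part of the locus, and miR-155 itself was not measured. The libraries are labelled as biological replicates, and whether each came from 1 animal is not stated, so p-values measure the spread between these libraries.

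Droplets without a cell still take up some of the fluid around the cells, and RNA that has leaked from damaged cells is captured there and counted as free, or ambient, RNA. The same RNA enters droplets that hold a cell, which is why its profile is used to judge low counts in single-cell data. Microglia are the resident macrophages of the brain and make up most CD11b+/CD45+ cells there, while choroid plexus epithelium (marked by Ttr, the thyroid hormone carrier transthyretin) and red blood cells (marked by the haemoglobin gene Hba-a1) are common sources of RNA from outside such a sort. Beads of the 3′ chemistry capture RNA by pairing a T-rich primer with a stretch of A bases, usually the tail added after transcription.

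The libraries held between 33130800 and 47574406 UMIs. Values of the 4 libraries are given below in the order cKO replicate 1, cKO replicate 2, Control replicate 1, Control replicate 2. Near-empty barcodes numbered 884786, 712920, 1076334 and 906620. They carried 14.9%, 17.8%, 11.2% and 16.3% of all UMIs, with between 14745 and 15206 genes detected. Pairs of libraries shared 1 to 4 cell barcodes, and near-empty barcodes that were a cell in another library held 0.212% to 0.296% of the near-empty UMIs. One library went against its label: Xist, the RNA that coats the inactive X chromosome of females, stood at 1756 to 1894 counts per 1000000 UMIs (CPM) in the cells of 3 libraries but at 0.704 CPM in the library labelled Control replicate 1. Y-linked genes were near 0 there as well: Xist, Tsix and 4 Y-linked genes summed to 1.02 CPM in its cells. In the file names the run code of cKO replicate 2 differs from that of the others, and its median cell had 7236 UMIs against 6158 to 6426 in the others. The microglial marker P2ry12 stood at 1948 to 2576 CPM in the cells of the 4 libraries.

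Near-empty barcodes fell into 2 populations of different size. Between 72.8% and 74.8% of them held a single UMI, and numbers fell steeply from there. In Control replicate 1, 171587 barcodes held 2 UMIs, 15525 held 4 and 235 held 16 to 19. Numbers then rose again, to 32149 barcodes at 79 to 99 UMIs. The low point lay near the lower end of the range of 11 to 100 UMIs, which held most of this separate group. The 11 to 100 UMI group held 67520, 78405, 48097 and 55867 barcodes. It carried 83.0%, 86.6%, 74.0% and 80.3% of the near-empty UMIs. Its median was 77, 66, 86 and 83 UMIs per barcode, which was 1.25%, 0.912%, 1.40% and 1.29% of the median cell. The free RNA profile of every library was therefore mostly that of the larger near-empty barcodes. The split at 10 UMIs was made after this distribution had been seen.

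**Figure D1:**
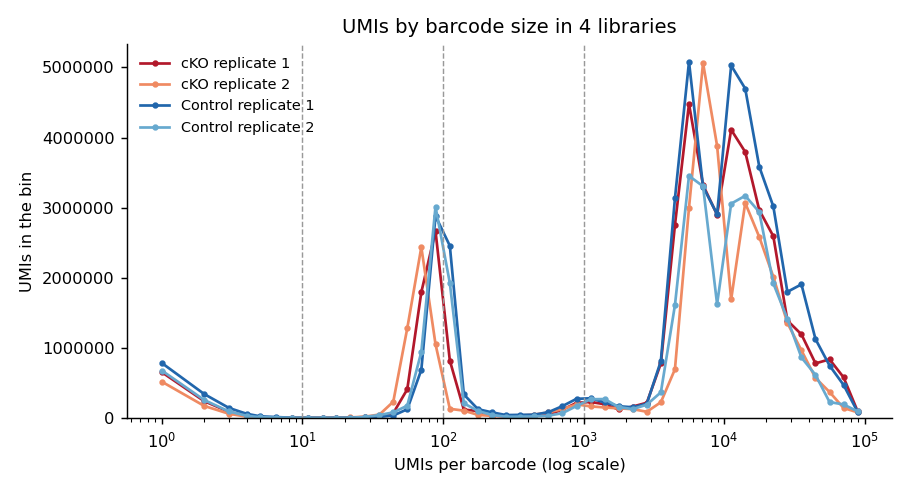
UMIs summed over barcodes against UMIs per barcode (log scale) in each of the 4 libraries, with dashed lines at 10, 100 and 1000 UMIs. In each library the near-empty UMIs lie in a small group at 1 to 10 UMIs and a larger one just below 100 UMIs, well apart from the cells on the right, and in 3 libraries the larger group runs past 100 UMIs.

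The upper limit of 100 UMIs cut through this second group rather than beside it. Barcodes above 100 UMIs and below 1000 numbered 9263, 3128, 25705 and 19260. Gm42418, the most abundant transcript of the near-empty barcodes, stood at 396046, 357233, 400421 and 422972 CPM just inside the limit (91 to 100 UMIs) and at 391935, 336769, 401765 and 426860 CPM just outside it (the next 10 UMI counts). Mitochondrially encoded genes held 1.07%, 3.70%, 0.830% and 0.825% of UMIs just inside and 1.60%, 7.20%, 1.01% and 1.00% just outside. These values describe the limit and were not tested.

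The 2 genes that gave the free RNA its label were not both found in it. Ttr reached 20.7, 117, 118 and 68.5 CPM in the near-empty barcodes, against 63.3, 240, 366 and 170 CPM in the cells of the same libraries. Free RNA thus had less Ttr per UMI than the summed cells in 4 of 4 libraries. The cell sums, however, rested on few cells. Ttr UMIs were found in 10 of 3828, 57 of 2852, 85 of 4351 and 13 of 2909 cells. A single cell held 4631 of the 6249 cell UMIs in cKO replicate 2. Without the 38, 29, 44 and 29 cells that held most Ttr UMIs, the other cells stood at 0, 1.09, 1.09 and 0 CPM. That was below the free RNA in 4 of 4 libraries, with the cells left out by their Ttr UMIs.

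Red blood cell RNA was not detectable in the near-empty barcodes. Hba-a1, Hba-a2, Hbb-bs and Hbb-bt, which encode the chains of adult haemoglobin, had 0 UMIs there in 4 of 4 libraries, which allows up to 0.490, 0.508, 0.565 and 0.544 CPM (3 counts of each total, counting error only). Of the pair of markers, Ttr was thus present in the free RNA and Hba-a1 was at 0. Both genes had named the fraction, so their values are a description without a test.

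The largest single part of the free RNA was a ribosomal RNA-like transcript. Gm42418 took 331700, 323712, 299820 and 341597 CPM in near-empty barcodes, against 47864, 40358, 42889 and 70672 CPM in cells. It lies on chromosome 17 at 39846958 to 39848788 (GRCm38, plus strand), and RefSeq (GRCm38.p6) lists its name as a synonym of Rn18s-rs5, a ribosomal RNA pseudogene. Every near-empty profile was above every cell profile, by 6.59-fold (log2 ratio 2.72 ± 0.17 SE, n = 4 libraries, edgeR quasi-likelihood test, adjusted p = 9.96e-08). AY036118, a non-coding RNA annotated on the opposite strand within the same stretch (39847113 to 39848035), averaged 10529 CPM in near-empty barcodes and 2400 CPM in cells (log2 ratio 2.14 ± 0.11). Because the 2 genes overlap and ribosomal RNA exists in many copies, their counts are uncertain as to locus.

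The size of this transcript bears on the scale on which every other gene is read. With CPM on the total UMIs, the median gene had a log2 ratio of free RNA to cells of -0.47. With Gm42418 and AY036118 left out of the sums it was 0.04, and under edgeR's TMM scaling, which sets the bulk of genes equal, it was 0.00. Ratios called relative below are therefore given minus the median gene. Of 12981 genes tested, 77 (0.593%) were over-represented in free RNA and 781 (6.02%) were under-represented on total UMIs, at an adjusted p under 0.05, a change of at least 2-fold and the same direction in 4 of 4 libraries. Under TMM scaling the split became 103 (0.793%) over and 123 (0.948%) under, and without Gm42418 and AY036118, a choice made after their share was seen, it was 136 (1.04%) over and 102 (0.777%) under of 13132 genes. The 77 over-represented genes and 123 under-represented ones were called under both of the first 2 scalings. On total UMIs the counts were 78 over and 1122 under without cKO replicate 2, and 85 and 734 without Control replicate 1. Since the sums hold many cells' RNA, more source cells of a type and more RNA lost per cell cannot be told apart.

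**Figure D2:**
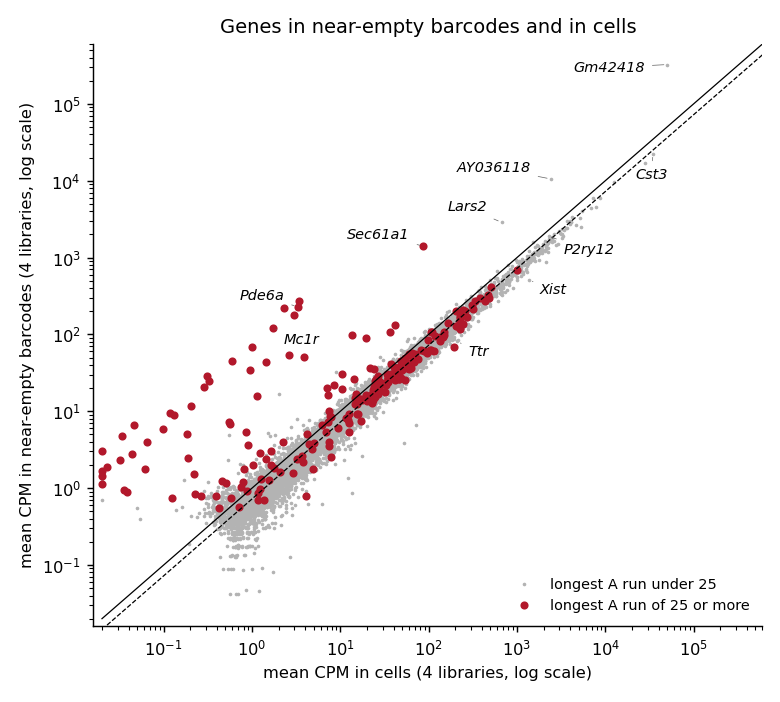
Mean CPM in near-empty barcodes against mean CPM in cells for the genes tested (both log scales, 4 libraries), with equality as a solid line and the median gene as a dashed line. Most genes lie along the dashed line; Gm42418, AY036118, Lars2 and many genes with a run of 25 or more A bases in a transcript (red) lie above it.

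Several of the over-represented transcripts had next to no counts in cells. Pde6a, a subunit of the light-activated phosphodiesterase of rod photoreceptors, reached 182, 241, 172 and 319 CPM in near-empty barcodes, against 2.70, 3.22, 3.15 and 4.02 CPM in cells (log2 ratio 6.09 ± 0.11 SE, edgeR adjusted p = 8.94e-14). Gnaz, a G protein alpha subunit, stood at 158, 210, 148 and 208 CPM against 2.28, 2.57, 4.07 and 3.04 CPM (5.89 ± 0.16). Mc1r, the melanocortin receptor of pigment cells, stood at 96.5, 139, 97.0 and 150 CPM against 1.35, 1.34, 1.85 and 2.29 CPM (6.11 ± 0.13). For each of these genes every near-empty value was far above every cell value.

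The other genes named by the rule covered unrelated functions. Dppa2, known from pluripotent cells, averaged 45.0 CPM in free RNA and 0.592 CPM in cells. Klkb1, the precursor of plasma kallikrein made by liver, averaged 43.8 against 1.43 CPM, and Phkg1, a subunit of muscle phosphorylase kinase, had a log2 ratio of 3.67. Slx1b, part of a DNA structure-specific nuclease, averaged 98.0 against 13.6 CPM. Sec61a1, the channel that carries new proteins into the endoplasmic reticulum, was well expressed in both fractions. It stood at 1109, 1637, 1128 and 1754 CPM in free RNA against 82.3, 94.8, 82.7 and 86.3 CPM in cells, a log2 ratio of 3.99 ± 0.12. Ahdc1, Trim2 and Igf2bp2 had smaller ratios of 2.17, 1.55 and 1.55, and with near-empty barcodes of at most 10 UMIs these 3 no longer stood above the median gene, at relative ratios of -0.11, -0.09 and -0.01.

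What 11 of the 13 over-represented genes named by the rule shared, and what the selection of barcodes had not used, was an internal run of at least 25 A bases. The longest such run in the annotated transcripts (GENCODE M21, GRCm38) is shown for 4 non-coding transcripts of the over-represented set and, for contrast, for Gm42418. Each line reads 5′ to 3′ along the transcript, with the run in capitals and up to 12 bases on either side:
5830416I19Rik: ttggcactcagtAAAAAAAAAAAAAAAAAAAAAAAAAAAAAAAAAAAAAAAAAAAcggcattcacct
Gm10062: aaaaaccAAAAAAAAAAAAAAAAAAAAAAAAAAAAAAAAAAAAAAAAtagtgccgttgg
Gm29325: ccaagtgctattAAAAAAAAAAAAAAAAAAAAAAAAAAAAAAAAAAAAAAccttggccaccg
Gm49767: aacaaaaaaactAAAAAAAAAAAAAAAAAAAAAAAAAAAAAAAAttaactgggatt
Gm42418: gcgtttactttgAAAAAAttagagtgttca
The first 4 runs lie in exons of non-coding transcripts at chr5:64049390-64049432 (plus strand, 43 bases), chr5:25661236-25661275 (minus, 40), chr1:51196785-51196822 (plus, 38) and chr16:31285808-31285839 (minus, 32). That of Gm42418 is at chr17:39847167-39847172 (plus, 6). Beside these sequences, 5830416I19Rik averaged 268 CPM in near-empty barcodes and 3.42 CPM in cells, Gm10062 217 and 2.27 CPM, Gm29325 69.2 and 0.992 CPM, and Gm49767 54.0 and 2.63 CPM.

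Long A runs were common among over-represented genes and rare among all genes tested. Of the 77, 52 (67.5%) had a run of 25 or more, against 222 (1.71%) of the 12971 tested genes with an annotated transcript, and of the 39 with a log2 ratio of 3 or more, 37 (94.9%) did. Runs of 25 or more T bases, searched in the same transcripts as a contrast, were present in 3 (3.9%) of the 77 and 215 (1.66%) of all. The share of genes called over-represented was 0.199% for a longest run of 1 to 9 bases, 0.133% for 10 to 14, 0.139% for 15 to 19, 0.862% for 20 to 24, 8.16% for 25 to 29 and 53.3% for 30 or more. In the last group 40 of 75 genes were called and the median relative ratio was 1.84. The limit of 25 bases was chosen after the values were seen, and these shares are given as a description. The filter on low counts used free RNA and cells together. Genes nearly absent from cells could therefore enter the test through their free RNA counts alone, while those low in both were left out. This can raise the shares called among long-run genes.

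**Figure D3:**
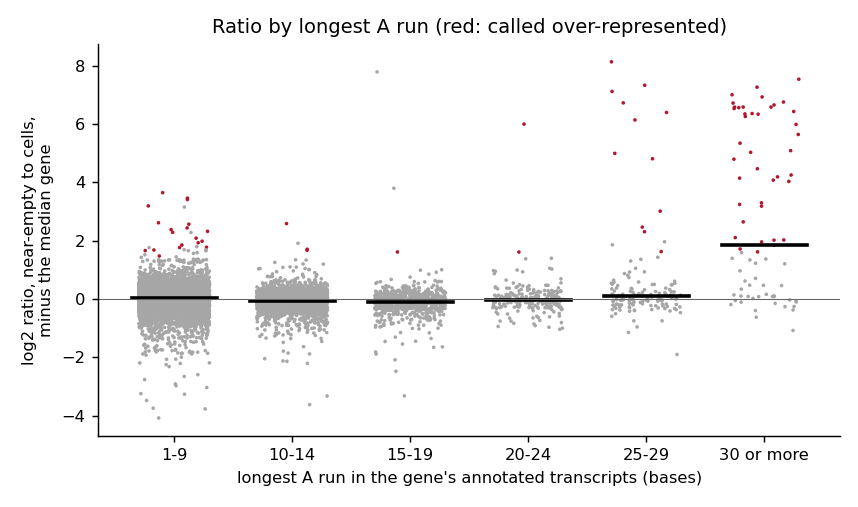
Log2 ratio of near-empty barcodes to cells, minus the median gene, for each tested gene, grouped by the longest run of A bases in its annotated transcripts. Black bars are group medians and red points are genes called over-represented; the median is near 0 up to 29 bases and 1.84 at 30 bases or more.

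The runs lay inside transcripts rather than at their ends. In 32 of the 52 genes the longest run was in a UTR, in 20 in an exon of a non-coding transcript and in 0 in coding sequence. Its median distance to the annotated 3′ end was 1390 bases, and in 6 genes it was within 100 bases of that end. The 52 genes were spread over 17 chromosomes, 45 were protein-coding, and 43 had less than 5 CPM in cells. They included Olfr905, an odorant receptor (28.9 against 0.311 CPM), Calb1, the neuronal calcium binder calbindin (9.59 against 0.118 CPM), and Il23a, a subunit of the cytokine interleukin-23 (34.4 against 0.943 CPM). Trpm3 (run of 31 bases) and Car12 (35), a channel and a carbonic anhydrase listed here as choroid plexus genes, were also among them. UMIs do not record where in a transcript a molecule was primed, so priming at these runs was not tested.

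The 25 over-represented genes without such a run were led by abundance by Gm42418, AY036118 and Lars2. Lars2, the mitochondrial leucyl-tRNA synthetase, stood at 2769, 2641, 2475 and 3592 CPM in free RNA and 614, 587, 580 and 887 CPM in cells (log2 ratio 2.11 ± 0.09). Snhg9, a small nucleolar RNA host gene, averaged 32.5 against 8.83 CPM.

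Counted per barcode instead of per UMI, the long-run transcripts ranged widely. Of 14 examined, chosen after their values were seen, 7 had less than 2 times as many UMIs per cell as per barcode of the larger near-empty group. Gm10062 gave 15.2, 19.2, 18.7 and 26.0 UMIs per 1000 barcodes of 11 to 100 UMIs, and 16.2, 16.5, 24.1 and 23.4 UMIs per 1000 cells. A cell held on average 1.03 times as many (range 0.859 to 1.29). The ratio was 1.26 for 5830416I19Rik, 1.27 for Dppa2, 1.36 for Mc1r, 1.39 for Gm29325, 1.42 for Pde6a and 1.61 for Gnaz. It was higher for Klkb1 (3.29), Sec61a1 (6.24), Phkg1 (7.64), Slx1b (14.1), Ahdc1 (22.4), Trim2 (35) and Igf2bp2 (35.3). For all genes together it was 118 (range 108 to 140), as a cell held far more RNA.

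Transcripts of microglia followed the cells. P2ry12, a purine receptor of microglia, gave 142 times as many UMIs per cell as per near-empty barcode, and Cst3, the protease inhibitor cystatin C, 244 times. Gm42418 stood at 15 (range 11.7 to 18.8), Lars2 at 23.2 and AY036118 at 24, within the range of the long-run genes. All 52 long-run genes together gave 310 ± 69.5 UMIs per 1000 near-empty barcodes and 2333 ± 164 per 1000 cells (SD, n = 4 libraries), a ratio of 7.77.

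Lists of neuronal and oligodendrocyte genes lay close to the median gene. Their members summed to 129 and 532 CPM in free RNA on average, those of endothelial cells to 324, of astrocytes to 248 and of the choroid plexus to 97.5 CPM. Large members were also counted in cells. Trf (oligodendrocyte) averaged 455 CPM in free RNA and 692 CPM in cells, Bsg (endothelial) 267 and 437, and Camk2n1 (neuronal) 77.3 and 127. Other members, such as Snap25 (0.210), Mog (0.128), Cldn5 (0) and Gja1 (0.260), were near 0 CPM in free RNA. The sums and medians are thus no measure of RNA from these cell types alone. Of 31 neuronal genes 12 had enough counts to be tested, with a median relative ratio of 0.04, and 1 (Map1b, a microtubule-binding protein) was under-represented on total UMIs but not under TMM scaling. Of 19 oligodendrocyte genes 10 were tested, with a median of -0.07. Mobp, a myelin protein, was over-represented at 2.61, 1.19, 3.39 and 1.99 CPM in free RNA against 0.480, 0.230, 0.939 and 0.512 CPM in cells (log2 ratio 2.09 ± 0.31). Mbp, the myelin basic protein gene, averaged 24.9 against 28.9 CPM and was not called. Of 18 endothelial genes 10 were tested, with a median of -0.25. On total UMIs 2 were under-represented, against 6.02% of all genes tested, and under TMM scaling 0 were. Of 13 mural, 11 ependymal and 10 oligodendrocyte precursor genes at most 2 each had enough counts.

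The median of the astrocyte list lay above the median gene in 4 of 4 libraries. Of 20 members, 13 were tested, 10 of them lay above the median gene, and their median relative ratio was 0.28. Over-represented were Aldoc, a glycolytic aldolase (3.10, 1.35, 2.26 and 1.45 CPM against 0.780, 0.383, 1.17 and 0.552 CPM, log2 ratio 1.51 ± 0.31), and Cpe, a peptide-processing enzyme (1.14 ± 0.29). With Gm42418 and AY036118 left out of the sums, 4 members were called over-represented. Of all genes tested, 0.593% were over-represented on total UMIs and 1.04% without Gm42418 and AY036118. The list median differed between libraries, at 0.74 and 0.86 in cKO replicate 1 and Control replicate 1 but 0.06 and 0.12 in cKO replicate 2 and Control replicate 2. Slc1a3, a glutamate transporter, lay below the median gene (-0.49), at 74.3 to 98.2 CPM in free RNA and 155 to 188 CPM in the cells.

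Most choroid plexus genes that were tested lay below the median gene in free RNA. Ttr, which named the fraction, is left out of the list here. Of the 17 other members 13 were tested, 7 were under-represented and 2 over-represented, and the median relative ratio was -0.97. Over all genes tested, 6.02% were under-represented and 0.593% over-represented. Enpp2, the secreted enzyme autotaxin, stood at 1.47, 5.93, 3.20 and 3.44 CPM against 2.31, 22.6, 15.4 and 8.32 CPM (log2 ratio -1.74 ± 0.19). Under TMM scaling 4 of the 7 (Enpp2, Kcnj13, Ecrg4 and Sostdc1) remained under-represented, and DESeq2 called 2 members under-represented. As with Ttr, these cell sums came from few cells: Enpp2 UMIs were found in 4, 5, 20 and 3 cells of the 4 libraries. All other cells held none. The list's median relative ratio was -0.01 in barcodes of 1 to 10 UMIs, with 0 members called by edgeR, and -1.55 in those of 11 to 100 UMIs. The relative ratio of Ttr was 0.17 with near-empty barcodes of at most 10 UMIs. The 2 over-represented members were the long-run genes Trpm3 and Car12.

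Defining transcripts of blood cells were scarce. Of 14 erythroid genes 10 had no UMI in any near-empty profile and 3 were tested, with a median relative ratio of -0.01 and no call. Of 11 neutrophil genes 9 were tested, with a median of -2.77. S100a9, a subunit of the neutrophil protein calprotectin, stood at 12.4, 2.71, 10.5 and 0.725 CPM in free RNA and 137, 24.2, 124 and 0 CPM in cells. Its cell UMIs came from 8, 3, 9 and 0 cells, and 4731 of the 4739 in Control replicate 1 were in a single cell. The list median ran from -3.38 to -2.33 in 3 libraries and was 1.36 in Control replicate 2, where the cells held no S100a9. One member (Cxcr2, a chemokine receptor) met the rule of the same direction in 4 libraries, but not under TMM scaling.

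Monocyte genes showed the same split between libraries. Of 10 members 9 were tested, with a median relative ratio of -0.72. S100a4 and Fn1 were under-represented, against 6.02% of all genes tested, and neither was called under TMM scaling. The median was -1.08, -1.22 and -0.76 in 3 libraries and 0.79 in Control replicate 2. Border-associated macrophage genes, which mark macrophages of the brain's surfaces, had a median of 0.14 over 7 tested members, and Clec12a was under-represented on total UMIs but not under TMM scaling. Of 16 lymphocyte and 8 platelet genes 3 each were tested, with medians of 0.23 and -0.13 and no call. Ighm, an immunoglobulin chain, and Csf3r, a receptor for a neutrophil growth factor, were present in both fractions, at 182 to 244 and 147 to 212 CPM in free RNA and 238 to 289 and 204 to 238 CPM in the cells.

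Transcripts of microglia were abundant in the near-empty barcodes. The 30 microglia identity genes summed to 49516, 43020, 51800 and 48914 CPM there, against 72542, 71222, 74387 and 69788 CPM in cells. The list's median relative ratio was -0.04, with 13 members above and 17 below, and 1 member, C1qc of the complement C1q complex, was under-represented on total UMIs (log2 ratio -1.06 ± 0.09) but not under TMM scaling. Membrane receptors and regulators such as Sall1 (0.53), P2ry13 (0.50), Cd33 (0.45), Tmem119 (0.21) and P2ry12 (0.19) lay above the median gene, and C1qa (-0.33) and Fcer1g (-0.48) below it. These differences were below the 2-fold of the call rule.

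Genes of microglial states were close to the median gene as well. The 32 genes of the disease-associated (MGnD) state had a median relative ratio of -0.13, with Cybb, a subunit of the phagocyte NADPH oxidase, under-represented on total UMIs. Apoe, a lipid carrier of that state, stood at 3169, 1311, 3004 and 4416 CPM in free RNA and 4064, 2573, 3580 and 4641 CPM in cells, with the libraries in the same order in both. Clec7a (-0.34) and Spp1 (-0.17) were not called. The 23 interferon-induced genes had a median of -0.06 and no call. The 7 genes of MHC class II, which presents antigen, had a median of -0.57, and Cd74, H2-Aa, H2-Ab1 and H2-Eb1 were under-represented at log2 ratios of -1.03 to -1.04. These 4 of 7 compare with 6.02% of all genes tested. None of the 4 was called under TMM scaling, and in barcodes of 1 to 10 UMIs the list stood at 0.07.

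Genes induced by handling were close to the median gene as lists. The 12 heat shock genes had a median relative ratio of 0.16 and the 20 immediate early genes one of -0.02. Hspa1a, an inducible chaperone, stood at 235, 525, 163 and 81.2 CPM in free RNA and 214, 394, 128 and 78.7 CPM in cells, higher in free RNA in 4 of 4 libraries, at a relative ratio of 0.71. Fosb, Jund, Egr3 and Btg2 of the immediate early list were under-represented on total UMIs and not under TMM scaling. Fosb, a subunit of the AP-1 transcription factor, had 289, 723, 422 and 173 CPM against 862, 1155, 984 and 563 CPM. The 18 cell cycle genes had a median of -0.21, and Top2a, Mki67, Hmgb2, Ube2c and Cenpa were under-represented on total UMIs and not under TMM scaling. Of the 12981 genes 6.02% were under-represented by the same rule, against 5 of these 18 and 4 of the 20 immediate early genes.

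**Figure D4:**
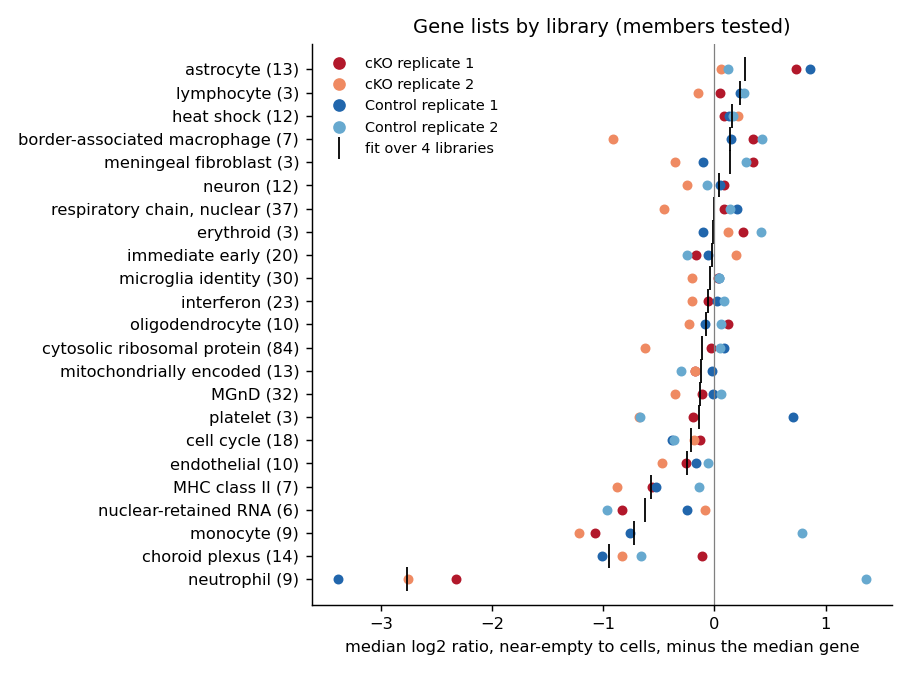
Median log2 ratio of near-empty barcodes to cells, minus the median gene, for the tested members of 23 gene lists with 3 or more of them (number in brackets), in each library (points) and from the fit over 4 libraries (bars). Most lists lie close to the median gene; neutrophil and monocyte genes lie on opposite sides of it in Control replicate 2 and the other 3 libraries.

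Several nuclear RNAs were lower in free RNA than in cells. Of 10 members of the nuclear-retained list 6 were tested, with a median relative ratio of -0.63. Xist, Kcnq1ot1 and Tsix were under-represented, against 6.02% of all genes tested. Xist stood at 528, 997, 0.565 and 514 CPM in free RNA and 1894, 1819, 0.704 and 1756 CPM in cells (log2 ratio -1.48 ± 0.16), and its relative ratio was -1.02 without Control replicate 1, which held nearly none. Kcnq1ot1, a long RNA that silences an imprinted domain, stood at 49.7, 114, 56.9 and 56.0 CPM against 192, 184, 203 and 195 CPM (-1.55 ± 0.16), although its annotated transcript holds a run of 41 A bases. Both were also called under TMM scaling, but Xist was not with DESeq2. Malat1, an RNA of nuclear speckles, had 13308, 26191, 16480 and 11842 CPM against 27180, 31903, 27061 and 27258 CPM and was not called. Xist, Kcnq1ot1 and Malat1 were lower in free RNA in 4 of 4 libraries, least so in cKO replicate 2 for Kcnq1ot1 and Malat1. For Xist, Control replicate 1 held only 3 counts in free RNA, so its direction there is uncertain. Gm26917 of the same list went the other way, at a relative ratio of 0.87. The list's median relative ratio was 0.12 in barcodes of 1 to 10 UMIs and -0.93 in those of 11 to 100 UMIs. Malat1 averaged 31054 CPM in barcodes of 1 to 10 UMIs and 28350 CPM in cells.

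Of the 15 under-represented genes with the lowest ratios at a mean of 20 CPM or more, 4 were also called under TMM scaling. They were Hist1h3d, a replication-dependent histone (log2 ratio -1.62 ± 0.16), Kcnq1ot1, Arl10, a small GTPase (-1.53 ± 0.10), and Xist. Arl10 had 13.4, 16.6, 16.6 and 12.7 CPM in free RNA against 42.3, 39.3, 45.9 and 43.7 CPM in cells. The other 11, among them Rabepk, Tsix, Adamts1, Nav2, Pbx3 and Tra2a, were not called under TMM scaling.

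The 2 populations of near-empty barcodes differed in make-up. Gm42418 took 3.83%, 4.26%, 3.16% and 4.87% of UMIs in barcodes of 1 to 10 UMIs, close to its share of 4.04% to 7.07% in cells, and 39.2%, 36.7%, 39.4% and 41.4% in barcodes of 11 to 100 UMIs. Mitochondrially encoded genes had the opposite order, with 4.77%, 4.02%, 5.08% and 5.98% in the smaller barcodes, 0.860%, 1.03%, 0.794% and 0.790% in the larger ones and 2.12% to 3.00% in cells. Since cells were filtered on mitochondrial UMIs, these shares are a description. Cytosolic ribosomal protein genes held 10.7% to 15.4% in the smaller and 3.94% to 7.18% in the larger barcodes. Microglia identity genes held 6.61% to 7.41% and 3.94% to 4.48%, against 6.98% to 7.44% in cells.

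**Figure D5:**
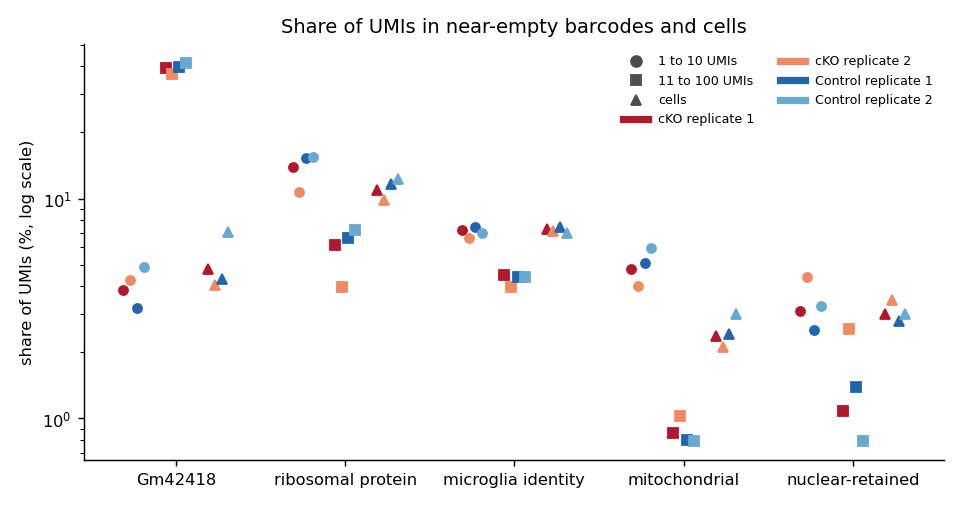
Share of UMIs (%, log scale) taken by Gm42418 and by 4 gene groups in near-empty barcodes of 1 to 10 UMIs (circles), those of 11 to 100 UMIs (squares) and cells (triangles), in each library (colours). For Gm42418 the squares lie between 36.7% and 41.4% and the other symbols between 3.16% and 7.07%; for mitochondrial genes the squares lie lowest.

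Compared gene by gene within the same libraries, 10436 genes were tested between the 2 populations, of which 62 (0.594%) were higher and 1321 (12.7%) lower in the barcodes of 11 to 100 UMIs by the same rule. The median gene was at a log2 ratio of -0.35, and Gm42418 was at 3.30 ± 0.12. Pde6a (4.48 ± 0.14) and Mc1r (4.38 ± 0.17) were higher in the larger barcodes. Mitochondrially encoded genes were lower in 12 of 13 cases (median relative ratio -2.03). Of the nuclear-encoded respiratory chain genes, whose proteins work in mitochondria, 29 of 37 were lower, with a median relative ratio of -0.89. Of the cytosolic ribosomal protein genes 69 of 83 were lower (median -0.88), as were 7 of 30 microglia identity genes (median -0.07) and 8 of 31 MGnD genes (-0.45). P2ry12, Sall1 and Cx3cr1 were above the median gene, at relative ratios of 0.56, 0.76 and 0.61, and Cst3, C1qa and Apoe were lower by the rule, at -0.99, -1.02 and -1.08. Of the nuclear-retained RNAs 5 of 6 were lower.

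Free RNA was also compared between genotypes, with all 4 libraries. No gene passed an adjusted p of 0.05 between cKO and Control free RNA (0% of 10873 genes tested with edgeR, 621 at an unadjusted p under 0.05; DESeq2 called 0, with 372). The same was true of the cells (0% of 13607). Leaving out 1 library, which leaves a group with 1 library that is assumed to vary like the others, gave 2533 genes without cKO replicate 1, 33 without cKO replicate 2, 19 without Control replicate 1 and 9 without Control replicate 2. The difference between genotypes in the ratio of free RNA to cells passed for 0% of 12981 genes (588 at an unadjusted p under 0.05; DESeq2 0, with 119), and for 1486 genes without cKO replicate 1, 1 without cKO replicate 2, 4 without Control replicate 1 and 0 without Control replicate 2. With 2 libraries a group, a count of 0 does not show that the genotypes were alike.

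The genes with the smallest p-values at a mean of 20 CPM or more in free RNA are given with their values in cells, which share the libraries and are no separate evidence. Hspa1a stood at 235 and 525 CPM in cKO and 163 and 81.2 CPM in Control free RNA (log2 difference cKO to Control 1.51 ± 0.37 SE, edgeR adjusted p = 0.737), and the difference in cells was 1.48 ± 0.27. Cdkn1a, a cell cycle inhibitor, stood at 29.7 and 25.2 against 14.5 and 15.4 CPM (0.76 in free RNA, 1.02 in cells). Hist1h2ac, a histone, stood at 24.7 and 24.4 against 42.0 and 47.5 CPM (-0.99 and -0.94). The cKO values of these 3 genes lay wholly to one side of the Control values. Crip1, a small zinc-binding protein, had 21.2 and 11.3 against 36.2 and 42.0 CPM (-1.37 in free RNA, -0.62 in cells), and Arrdc3, an arrestin-related protein, 50.8 and 83.1 against 38.0 and 32.1 CPM (0.80 and 0.30). Il4i1, an amino acid oxidase, had 18.9 and 16.2 against 28.1 and 30.1 CPM (-0.84 and -0.71). The groups did not overlap in these 3 genes either. All 6 were chosen by small p-values, which favours such separation, and the share of separated genes over all genes was not counted. All 6 had an edgeR adjusted p of 0.737 in free RNA. In cells the edgeR adjusted p was 0.0532 for Cdkn1a and Hist1h2ac, 0.186 for Il4i1, 0.334 for Hspa1a, 0.463 for Crip1 and 0.702 for Arrdc3.

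A few genes chosen with earlier results in the cells known were looked up as well. The log2 difference between genotypes was 1.12 in free RNA and 1.29 in cells for Iigp1, an interferon-induced GTPase, 1.73 and 1.42 for Esr1, the oestrogen receptor, and -0.79 and -0.81 for Cx3cr1, the fractalkine receptor. For Clec7a it was -0.87 and -0.66, and for Apoe -0.84 and -0.39. Apoe stood at 3169 and 1311 CPM in cKO and 3004 and 4416 CPM in Control free RNA, so its groups overlapped in free RNA. None of these passed the adjusted threshold in either fraction. In cells the edgeR adjusted p was 0.0532 for Iigp1 and Esr1, 0.334 for Cx3cr1, 0.636 for Clec7a and 0.757 for Apoe. The largest differences between fractions among the rule's genes, for Fabp5 (-0.83), Crip1 (-0.73) and Ago3 (0.71), had an edgeR adjusted p of 0.880.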

How the data were processed

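Droplet libraries of sorted brain myeloid cells were compared, 2 cKO and 2 Control. The authors deposited UMI counts, as whole numbers without normalization, of 32372 genes in every barcode, empty droplets included. Per the submitters' processing notes, these counts came from Cell Ranger 4.0.0 and the mm10 build. The deposited barcode and gene lists (other: names) label the counts.

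UMIs were summed over near-empty barcodes and over cells of each library, whose totals run from 5310071 to 6121492 and from 25365650 to 38356100 UMIs. Doublets were not removed, since cells enter as sums only. Free RNA and cells were compared with edgeR 4.0.16 (R 4.3.3, quasi-likelihood test, library as a block, total UMIs as library sizes, filterByExpr, Benjamini-Hochberg adjustment over all genes), and genotypes with TMM scaling. A gene was called at an adjusted p under 0.05, a log2 ratio of 1 or more in size and 1 direction in 4 of 4 libraries, or for genotype at the adjusted p alone. DESeq2 1.42.0, other scalings, UMI limits, the replicate block and single libraries left out were tried. The fits were tested on simulated data.

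Named genes were the up to 15 called genes with the largest and smallest ratios at a mean of 20 CPM or more (predicted, ribosomal and mitochondrial genes left out), up to 4 of highest level in each of 27 lists, and checks. Transcripts with long runs, bands of UMIs and members outside this rule were chosen after their values were seen. Members and lists were chosen with earlier results of these data known. Positions and transcripts are from GENCODE M21 (GRCm38), in which 128 genes of the files had none. Intervals and floors cover counting error only, and 3′ UMI counts are not scaled for length.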

Additional observations from a re-analysis of the deposited data

Results flagged for a closer look

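Among 138 named genes with a ratio in all 4 libraries, 12 had 1 library whose log2 ratio of free RNA to cells, minus that library's median gene, lay apart from the other 3 at the 95% critical value of Dixon's test, which chance passes in about 1 in 20 genes. Of these, 9 concerned cKO replicate 2. Its ratio was lower than in the other libraries for C1qa (-0.70 against -0.26 to -0.18), C1qc (-0.77 against -0.55 to -0.51), Rps29 (-0.69 against -0.04 to 0.02), Cox4i1 (-0.62 against 0.07 to 0.21), Cox7c (-0.41 against 0.01 to 0.07) and Gp9 (-0.68 against -0.19 to -0.12). It was higher for Kcnq1ot1 (-0.29 against -1.46 to -1.30), Kcnj13 (-0.58 against -1.60 to -1.43) and Csf3r (0.30 against -0.02 to 0.03).

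In Control replicate 1, Gnaz was lower (5.66 against 6.59 to 6.76) and mt-Co1 higher (-0.081 against -0.46 to -0.40). In Control replicate 2, Slc1a2 was lower (0.23 against 1.35 to 1.55).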

How the results depend on the processing

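The count of under-represented genes (781) depended on the scaling and on the UMI limits. It was 123 under TMM, 77 with DESeq2 and 102 without Gm42418 and AY036118 (added after seeing the data), and 212, 255 and 1492 with near-empty barcodes of at most 50, at most 10 and 11 to 100 UMIs. The count of over-represented genes (77) was 136 without Gm42418 and AY036118. Leaving out 1 library gave 77 to 85 over-represented and 689 to 1122 under-represented genes. At limits of 50 and 10 UMIs, 27 and 17 of the 77 over-represented genes were still called.

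For genotype in free RNA, leaving out 1 library gave 9 to 2533 genes, and for genotype by fraction 0 to 1486. Nothing in the labels says that equal replicate numbers pair the samples. The difference between the cKO replicates correlated with that between the Control replicates at r = -0.14 over 10873 genes. With 2 libraries a group this cannot decide whether they were paired. With the replicate block 27 genes were called in free RNA, 12 higher and 15 lower in cKO, and with the crossed pairing, added after seeing the data, 3. By fraction, 3 genes were called at 50 UMIs and 1 at 1 to 10 UMIs. The cause of these differences was not tested.

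With near-empty barcodes of at most 10 UMIs the relative ratio changed sign for Gm42418 (-0.14), Ahdc1 (-0.11), Trim2 (-0.090), Igf2bp2 (-0.0060), Rabepk (0.084), Ttr (0.17), S100a4 (0.53), Cd74 (0.14), H2-Ab1 (0.068), H2-Eb1 (0.20), Ecrg4 (0.13) and Egr3 (0.014), and at 50 UMIs for Ttr (0.039), S100a4 (0.36), Cd74 (0.032) and H2-Eb1 (0.13). Of the other values, 335 list medians moved by less than the spread between libraries and 42 by more, and 1769 values of named genes kept their direction and call, or moved by less than the spread where there was no call, against 154 that lost the call and 155 without a call that moved by more. Genes under the 3-count floor of a library cannot be told from absent.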
